A study of Rattus norvegicus with 16 samples.

Results

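Hcn2, Hcn3, Hcn4 and Pex5l were examined in the CA1 field of the rat hippocampus a week after kainate seizures in infancy. The genes encode pore subunits of the h-current channels and TRIP8b, the auxiliary protein of those channels. The rows were taken from the isoform table by gene symbol, and each symbol had 1 isoform there, so 4 isoforms of 21698 were described and the isoform value of each gene was also its gene total. All 4 passed into every fit, because no filter on low values was applied.

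Hyperpolarization-activated cyclic nucleotide-gated channels open when a neuron is hyperpolarized and pass a mixed inward current of sodium and potassium, the h-current, which brings the membrane back towards threshold. Cyclic AMP binds to a domain in the cytoplasmic tail and makes opening easier, and channels assemble as tetramers of like or unlike subunits. In CA1 pyramidal neurons the h-current is known for its density in distal dendrites, where it shortens synaptic potentials and limits their summation. TRIP8b, the product of Pex5l, binds the tail of the channel subunits, governs how many channels reach the dendritic surface, and weakens the action of cyclic AMP.

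The kainate group was 8 male Sprague-Dawley rats given 2 mg/kg of the glutamate receptor agonist kainate under the skin on postnatal day 7, all of which had seizures. The control group was 8 male Sprague-Dawley rats given saline on the same day. Both groups were killed on postnatal day 14, and CA1 was cut from 400 µm dorsal hippocampal slices after 60 min in artificial cerebrospinal fluid, with 1 library per numbered rat. The labels name no strain difference, transgene or pooling of animals, and separate animals rest only on the numbers in the sample titles.

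The authors deposited a log2 value per isoform and library, from which read totals cannot be had, so depth cannot be stated per library and values carry no counting interval. Replicates 1 to 4 stood apart from replicates 5 to 8 in both groups on the first principal component of all isoforms, which held 45.3% of the variance. Values are therefore also given for each of these sets, and the labels give no batch that would name the split. Of 8 listed CA1 pyramidal markers 6 had a row in the table, led by Wfs1 at a mean normalized count of 36329 in the authors' deposited table. Their summed log2 level ran from 16.52 to 16.69 in kainate libraries and from 16.51 to 16.76 in control libraries. In whole CA1 tissue, fewer cells of a type and less RNA per cell cannot be told apart.

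The comparison of kainate with control asked whether the early seizures left a lasting difference in these transcripts. The Pex5l mean was 1.06 times the control mean on the deposited scale and the Hcn2 mean was 0.972 times it. The Hcn3 and Hcn4 means were each 1.01 times the control mean. None of the 4 isoforms passed limma at an adjusted p under 0.05, and the kainate and control libraries overlapped for each of them. By limma 0 of all 21698 isoforms passed (0%), and 325 (1.5%) had an unadjusted p under 0.05, none of them a member. The corresponding number with the replicate number as a block was 1330 (6.13%), and with a term for the split of replicates 1044 (4.81%), again with 0 past the adjusted threshold in both. The fit without either keeps the split of replicates in its error, and its SE was the wider for each of the 4 members. With the block the SE was 0.050 for Hcn2, 0.038 for Hcn3 and 0.028 for Hcn4. The authors' deposited table has an adjusted p for 16650 isoforms, of which 7 passed (0.042%), and none belonged to these genes.

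Hcn2 encodes a subunit with a strong response to cyclic AMP that is found in the dendrites of pyramidal neurons and in many other cells. Its isoform ENSRNOT00000011837 lies on chromosome 7 with a gene start of 12851739 in the authors' deposited table. The build of these positions is not stated in the labels or the file. The log2 value had a lowest of 11.47, a median of 11.73 and a highest of 11.90 in the 8 kainate libraries, and a lowest of 11.59, a median of 11.77 and a highest of 11.88 in the 8 control libraries. The groups overlapped, and the kainate libraries held both the lowest and the highest value of all. Kainate replicates 3 and 4 were the low ones, at 11.47 and 11.51, and kainate replicate 1 was the highest. The mean was 11.70 ± 0.15 after kainate and 11.74 ± 0.095 in controls (SD, n = 8). The difference was -0.040 ± 0.061 (SE, n = 8 per group), with a 95% interval from -0.17 to 0.088, or from 0.890 to 1.06 times the control level (limma adjusted p = 1.00).

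The size of the Hcn2 difference varied with the libraries taken. Kainate exceeded its same-numbered control in 2 of 8 pairs, with pair differences from -0.25 for replicate 3 to 0.30 for replicate 1 and a median of -0.073. Pairs here and below rest on the replicate number alone, which follows the order of rat numbers within each group. No label says that these rats were matched. Without kainate replicate 3 the difference was -0.0064, and leaving out the pair of replicate 1 gave -0.090. In replicates 1 to 4 the means were 11.67 ± 0.22 after kainate and 11.71 ± 0.13 in controls (SD, n = 4). In replicates 5 to 8 they were 11.74 ± 0.059 after kainate and 11.78 ± 0.019 in controls (SD, n = 4). The spread was thus several times wider in the first set, and the sign was the same in both.

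Hcn2 transcript is also known from mouse oligodendrocytes, so the myelin markers are given beside it. The means of all 10 measured myelin markers were lower after kainate (median difference -0.12), and 0 passed by limma. Of these markers 1 had an unadjusted p under 0.05 by limma, against 1.39% of all genes. With the replicate number as a block 4 did, against 6.6% of all genes. Their summed log2 level ran from 17.76 to 18.22 with a median of 18.04 in kainate libraries, and from 17.88 to 18.30 with a median of 18.14 in control libraries. Mbp was at 16.86 ± 0.15 after kainate and 17.00 ± 0.14 in controls (SD, n = 8), and no marker of the list was absent. The part of the myelin markers in the Hcn2 value was not tested.

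Hcn3 encodes a subunit on which cyclic AMP has little effect. Its isoform ENSRNOT00000027785 lies on chromosome 2 with a gene start of 188454853 in the authors' deposited table. The log2 value had a lowest of 9.72, a median of 9.85 and a highest of 9.94 in kainate libraries, and a lowest of 9.67, a median of 9.82 and a highest of 9.93 in control libraries. The groups overlapped over nearly their whole range, with kainate replicates 7 and 8 highest and control replicate 1 lowest. The mean was 9.84 ± 0.086 after kainate and 9.82 ± 0.073 in controls (SD, n = 8). The difference was 0.020 ± 0.042 (SE, n = 8 per group), with a 95% interval from -0.068 to 0.11 (limma adjusted p = 1.00).

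The direction of the Hcn3 difference depended on control replicate 1. Without that library the difference was -0.0019, and leaving out the pair of replicate 1 gave -0.0049. Kainate exceeded its same-numbered control in 4 of 8 pairs. The difference was 0.0098 in replicates 1 to 4 alone and 0.029 in replicates 5 to 8 alone. In the RefSeq annotation of GRCr8 the span of Hcn3 overlaps that of Pklr, a pyruvate kinase gene that has no row in the table. The sources do not say that counting used strand, so the Hcn3 values are uncertain to that extent. The same holds for Pex5l, whose span overlaps the unnamed loci LOC134485613 and LOC134485614, also without a row in the table.

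Hcn4 encodes the subunit of slow opening that dominates in the cardiac pacemaker and, in brain, is prominent in the thalamus. Its isoform ENSRNOT00000012644 lies on chromosome 8 with a gene start of 63600663 in the authors' deposited table. The mean normalized count was 374 in the authors' deposited table, against 912 for Hcn3, 3407 for Hcn2 and 6490 for Pex5l. These counts are not divided by transcript length, so they do not rank the genes by level. The log2 value of Hcn4 had a lowest of 8.44, a median of 8.55 and a highest of 8.64 in kainate libraries, and a lowest of 8.41, a median of 8.53 and a highest of 8.68 in control libraries. The kainate range lay wholly inside the control range. The mean was 8.55 ± 0.071 after kainate and 8.53 ± 0.097 in controls (SD, n = 8). The difference was 0.019 ± 0.043 (SE, n = 8 per group), with a 95% interval from -0.072 to 0.11 (limma adjusted p = 1.00).

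For Hcn4 kainate exceeded its same-numbered control in 6 of 8 pairs, by amounts from -0.096 to 0.098. The Hcn4 difference ran from 0.0015 without control replicate 3 to 0.040 without control replicate 5. Hcn4 was lower in replicates 1 to 4 than in replicates 5 to 8, at 8.49 ± 0.075 against 8.58 ± 0.065 over both groups (SD, n = 8). The means of all 4 measured thalamic markers were lower after kainate (median difference -0.014). Their summed log2 level ran from 11.46 to 11.64 in kainate libraries and from 11.39 to 11.70 in control libraries. Their part in the Hcn4 value was not tested.

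Pex5l had the largest difference of the 4 isoforms. Its isoform ENSRNOT00000015200 lies on chromosome 2 with a gene start of 119330080 in the authors' deposited table. TRIP8b is known for alternative splicing at its amino end, which sets whether channels go to the surface or are taken in. RefSeq lists 36 transcripts of the rat gene, but with 1 isoform in the table no mix of splice forms could be compared. The log2 value had a lowest of 12.35, a median of 12.73 and a highest of 12.82 in kainate libraries, and a lowest of 12.45, a median of 12.60 and a highest of 12.83 in control libraries. The groups overlapped, since the lowest value of all came from kainate replicate 7 and the highest from control replicate 3. Of the kainate libraries, 6 lay between 12.73 and 12.82, a range that only 2 control libraries, replicates 1 and 3, reached.

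The Pex5l mean was 12.69 ± 0.15 after kainate and 12.61 ± 0.13 in controls (SD, n = 8). The difference was 0.088 ± 0.068 (SE, n = 8 per group), with a 95% interval from -0.056 to 0.23, or from 0.962 to 1.17 times the control level (limma unadjusted p = 0.213, adjusted p = 1.00). With the replicate block the SE was 0.053 and the interval ran from -0.029 to 0.21 (limma unadjusted p = 0.126, adjusted p = 0.814). The authors' deposited table gives a log2 fold change of 0.098 with an SE of 0.062 and an adjusted p of 0.816. Among the 2001 isoforms nearest to Pex5l in mean normalized count, itself included, the median absolute difference was 0.031. The median SD within groups of those isoforms was 0.11, against 0.14 for Pex5l.

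Pairs were split for Pex5l, where kainate exceeded its same-numbered control in 4 of 8. The pair differences ran from -0.13 for replicate 7 to 0.37 for replicate 2. Without kainate replicate 7 the difference was 0.14 (limma unadjusted p = 0.0228, adjusted p = 0.954), and leaving out the pair of replicate 2 gave 0.047. In the fit without kainate replicate 7, 636 of 21698 isoforms had an unadjusted p under 0.05. In replicates 1 to 4 the Pex5l means were 12.78 ± 0.038 after kainate and 12.66 ± 0.17 in controls (SD, n = 4). In replicates 5 to 8 they were 12.61 ± 0.18 after kainate and 12.55 ± 0.079 in controls (SD, n = 4). An interaction of kainate with these sets was fitted after seeing the data, from which the split itself was also chosen. The kainate difference in replicates 5 to 8 was 0.064 ± 0.12 (SE) below that in replicates 1 to 4, and that interaction did not pass (limma adjusted p = 1.00). Neither did the interaction for Hcn2, Hcn3 or Hcn4 (limma adjusted p = 1.00 each).

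**Figure D1:**
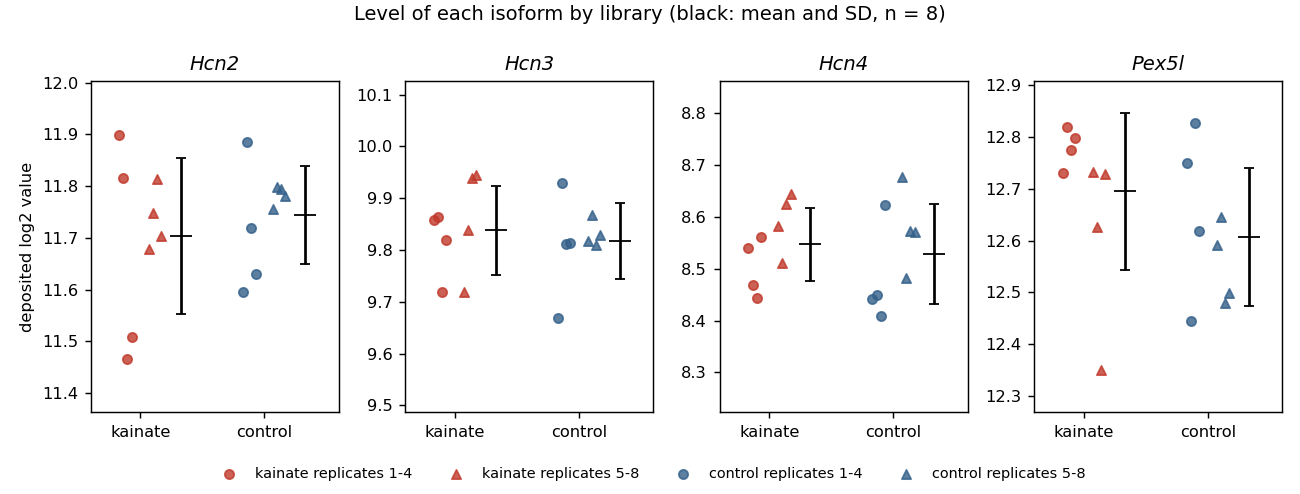
Deposited log2 value of each isoform (vertical axis) in the 8 kainate and 8 control libraries; circles are replicates 1 to 4, triangles replicates 5 to 8, and black bars the mean and SD. All panels span the same log2 range, and the groups overlap in all 4 panels.

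**Figure D2:**
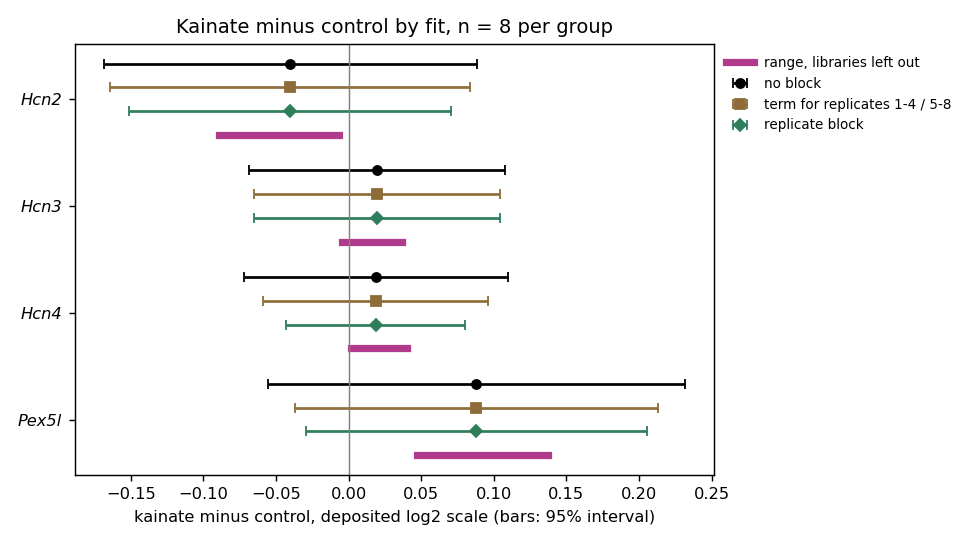
Kainate minus control on the deposited log2 scale (horizontal axis) for each isoform, with 95% intervals from limma without a block, with a term for the 2 sets of replicates and with the replicate block; the thick bar spans the differences with 1 library or 1 same-numbered pair left out. All intervals span 0, and of the thick bars that of Hcn3 crosses 0.

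**Figure D3:**
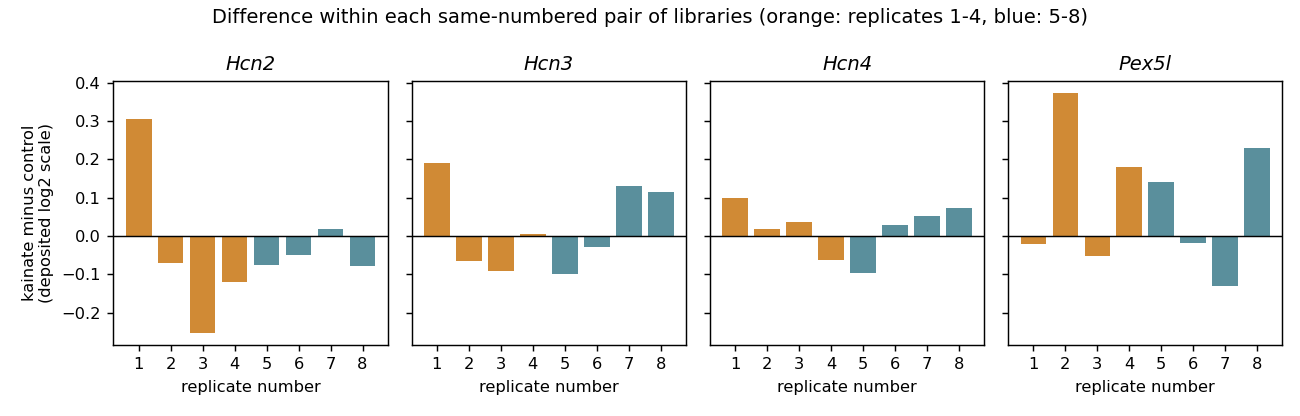
Difference between the kainate and control library of the same replicate number (vertical axis, log2) for replicates 1 to 8 (horizontal axis). Kainate exceeded control in 2 of 8 pairs for Hcn2, 4 of 8 for Hcn3, 6 of 8 for Hcn4 and 4 of 8 for Pex5l. No label says that libraries of the same number were matched.

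Dentate granule markers are given beside Pex5l, as the labels' protocol kept the dentate gyrus attached during recovery. Of 7 measured dentate markers, 6 had higher means after kainate, with a median difference of 0.086, and 0 passed by limma. An unadjusted p under 0.05 by limma was found for 2 of the 7, against 1.39% of all genes. With the replicate block it was found for 3, all higher after kainate, against 6.6% of all genes. Their summed log2 level ran from 12.88 to 13.35 with a median of 13.12 in kainate libraries, and from 12.90 to 13.15 with a median of 12.95 in control libraries. Differences in the dentate list ran from -0.0035 to 0.23. Prox1, near the upper end, was at 11.39 ± 0.25 after kainate and 11.16 ± 0.20 in controls (SD, n = 8). Interneuron markers had higher means in 4 of 10 cases, and their summed log2 level ran from 15.65 to 15.87 in kainate libraries and from 15.61 to 15.86 in control libraries. CA3 pyramidal markers had higher means in 1 of 6 cases (median difference -0.047), and cortical layer markers in 6 of 6 (median difference 0.027). Of the interneuron markers 1 had an unadjusted p under 0.05 by limma, and 2 did with the block. Of the CA3 and cortical layer markers 0 did in either fit. The part of these cells in the Pex5l value was not tested.

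The balance between TRIP8b and Hcn2 transcripts was taken within each library as the log2 value of Hcn2 minus that of Pex5l. It was -0.99 ± 0.25 after kainate and -0.86 ± 0.21 in controls (SD, n = 8). Kainate libraries ran from -1.31 to -0.54 and control libraries from -1.16 to -0.56, so most of the ranges overlapped. The mean balance was 0.13 log2 units lower after kainate, and a kainate library exceeded its same-numbered control in 2 of 8 pairs. The change was -0.15 in replicates 1 to 4 and -0.10 in replicates 5 to 8. No test was run on this balance, since it combines members chosen with earlier results known. The balance restates the Hcn2 difference of -0.040 and the Pex5l difference of 0.088 and is no separate result. Its change was the largest among the pairs of members. The mean change was -0.068 for Hcn3 minus Pex5l, -0.069 for Hcn4 minus Pex5l, -0.060 for Hcn2 minus Hcn3 and -0.059 for Hcn2 minus Hcn4. Hcn3 minus Hcn4 was 1.29 ± 0.074 after kainate and 1.29 ± 0.12 in controls (SD, n = 8).

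The members did not vary together as 1 group from rat to rat. Correlations were computed for 6 pairs of genes on deviations from the mean of group and replicate set, over 16 libraries, and are given as a description without a p-value. Hcn2 and Hcn3 varied in the same direction, with a Pearson r of 0.65 and a Spearman rho of 0.61. Their r was 0.76 within replicates 1 to 4, 0.58 within replicates 5 to 8, and 0.62 without kainate replicates 1 and 3, the libraries farthest from the Hcn2 median. Of 13057 genes, 1970 followed Hcn2 more closely than Hcn3 did, so the value is common in this table. Pex5l tended the other way, with r of -0.40 against Hcn2 (rho = -0.33) and -0.47 against Hcn3 (rho = -0.23). Of 13057 genes, 9070 had a higher r with Hcn2 than Pex5l did, and 10441 had a higher r with Hcn3. Values as low as those of Pex5l are thus not rare in this table either. The r of Pex5l with Hcn2 was -0.39 within replicates 1 to 4, -0.86 within replicates 5 to 8, and -0.49 without kainate replicates 1 and 3. With Hcn3 it was -0.59 within replicates 1 to 4 and -0.37 within replicates 5 to 8. Without control replicate 1 and kainate replicate 5, the latter r was -0.33 over the remaining libraries. Hcn4 had r of -0.091 with Hcn2, 0.18 with Hcn3 and -0.22 with Pex5l (rho = -0.16, 0.21 and -0.29). All these points share the library and whatever sets its composition.

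**Figure D4:**
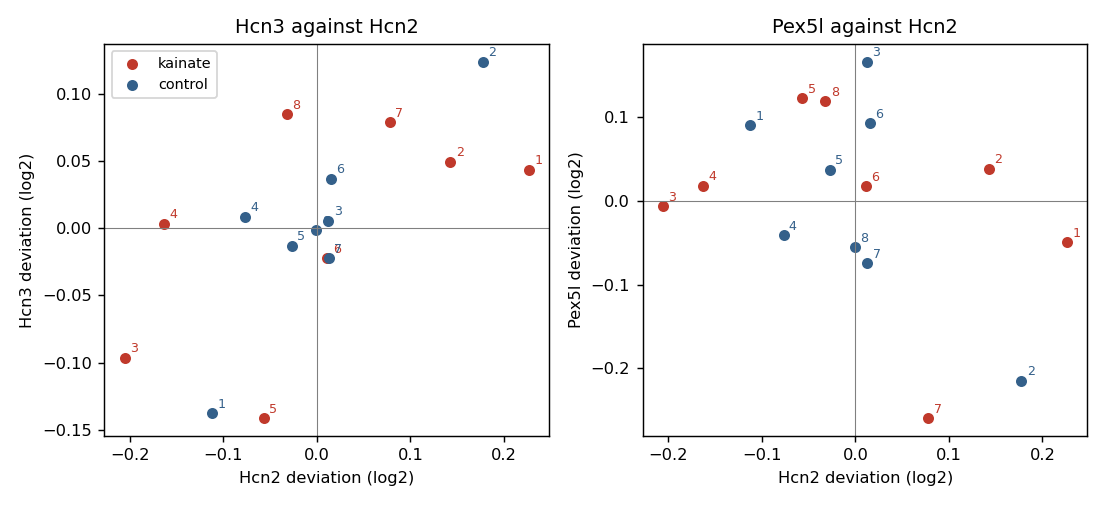
Deviation of Hcn3 (left) and of Pex5l (right) from the mean of group and replicate set, plotted against that of Hcn2, all in log2 units; each point is a library with its replicate number. Hcn3 follows Hcn2 (r = 0.65), while Pex5l tends to be low where Hcn2 is high (r = -0.40), with kainate replicate 7 and control replicate 2 lowest for Pex5l. Of 13057 genes, 1970 had a higher r with Hcn2 than Hcn3 did, and 9070 a higher r than Pex5l did.

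The genes most like each member across the 16 libraries were found on the same deviations, among genes with a summed mean normalized count of at least 100. For Hcn2 they were P4htm, a transmembrane prolyl hydroxylase (r = 0.98), the locus AC109096.1 (r = 0.97) and Dmwd, a WD-repeat protein (r = 0.97). For Hcn3 they were Cplx1, complexin 1 of the presynaptic release machinery (r = 0.94), B4galnt4, a glycosyltransferase (r = 0.93), and Sgsm3, a regulator of small GTPases (r = 0.91). For Hcn4 they were Pum3, an RNA-binding protein (r = 0.89), Gabrr2, a GABA receptor rho subunit (r = 0.84), and Rtbdn, retbindin (r = 0.83). For Pex5l they were Homer1, a postsynaptic scaffold that binds metabotropic glutamate receptors (r = 0.92), Bcl2l13, a mitochondrial protein (r = 0.91), and Ttll7, a tubulin-modifying enzyme (r = 0.90). With deviations from the group mean alone, Homer1 was again nearest to Pex5l (r = 0.92) and Cplx1 to Hcn3 (r = 0.92), while Dapk3 was nearest to Hcn2 (r = 0.96) and Fam222b to Hcn4 (r = 0.86). Homer1 was at 11.33 ± 0.14 after kainate and 11.26 ± 0.10 in controls (SD, n = 8), a difference of 0.070 ± 0.057 (SE, n = 8 per group; limma adjusted p = 1.00).

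Genes that act on the channels or beside them were taken as 4 lists and compared as gene totals. By limma 0 of all 16602 genes passed (0%), with 230 (1.39%) at an unadjusted p under 0.05, or 1096 (6.6%) with the replicate block and 0 passing. Of those 1096 genes, 673 had higher means after kainate, so the block fit leaned upward over the whole table. Of all genes 47.6% had a higher mean after kainate, and the median difference over all genes was -0.0017. No gene of the 4 lists passed in either fit. The lists are described by their counts and medians alone.

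Partners and regulators of the channels had higher means in 15 of 22 cases, with a median difference of 0.020 and a range from -0.033 to 0.081. Nedd4l, a ubiquitin ligase that acts on channels of the surface membrane, was at 12.34 ± 0.073 after kainate and 12.27 ± 0.072 in controls (SD, n = 8), a difference of 0.068 ± 0.039 (SE). Lrmp, whose product alters cyclic AMP sensitivity of HCN4 in cultured cells, differed by -0.033 ± 0.022 (SE), and Camk2b, a calcium-dependent kinase subunit, by 0.045 ± 0.039 (SE). By limma 0 of the 22 had an unadjusted p under 0.05 without the block, and with it Nedd4l did. Kctd3, a partner of HCN3, was at 12.33 ± 0.048 after kainate and 12.31 ± 0.057 in controls, and Rab8b, the GTPase after which TRIP8b was named, at 11.74 ± 0.12 after kainate and 11.74 ± 0.12 in controls (SD, n = 8). Kctd3 and Rab8b were picked for their role after their values were seen.

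Genes of cyclic AMP synthesis, breakdown and protein kinase A had higher means in 18 of 25 cases, with a median of 0.0093. The 3 with the smallest p were Pde10a and Pde1b, which break down cyclic nucleotides, at 0.11 ± 0.089 and 0.070 ± 0.057, and Adcy9, an adenylyl cyclase, at 0.082 ± 0.072 (SE, n = 8 per group). None of the 25 had an unadjusted p under 0.05 by limma, and 3 did with the replicate block, all higher after kainate.

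Resting potassium channels, whose outward current the h-current opposes, had higher means in 12 of 14 cases, with a median of 0.033. Kcnj3, a G protein-gated inward rectifier subunit, was at 10.81 ± 0.098 after kainate and 10.72 ± 0.083 in controls (SD, n = 8). Kcnk9, a leak channel, was at 9.71 ± 0.15 after kainate and 9.58 ± 0.17 in controls. Kcnk2, another leak channel, was at 10.54 ± 0.062 after kainate and 10.60 ± 0.056 in controls, the opposite direction. None of the 14 had an unadjusted p under 0.05 without the block, and 5 did with it, of which 4 had higher means.

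Of the other channels with a cyclic nucleotide-binding domain or one homologous to it, 10 of 14 were in the table. Higher means after kainate were found in 6 of 10, with a median of 0.0077. Kcnh7, an ether-a-go-go-related potassium channel, differed by 0.17 ± 0.099, Kcnh8 by 0.029 ± 0.018 and Kcnh5 by 0.057 ± 0.038 (SE, n = 8 per group). Kcnh7 thus had a larger difference than any of the 4 members and did not pass either (limma adjusted p = 1.00). By limma 0 of the 10 had an unadjusted p under 0.05 without the block, and with it Kcnh7 did.

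**Figure D5:**
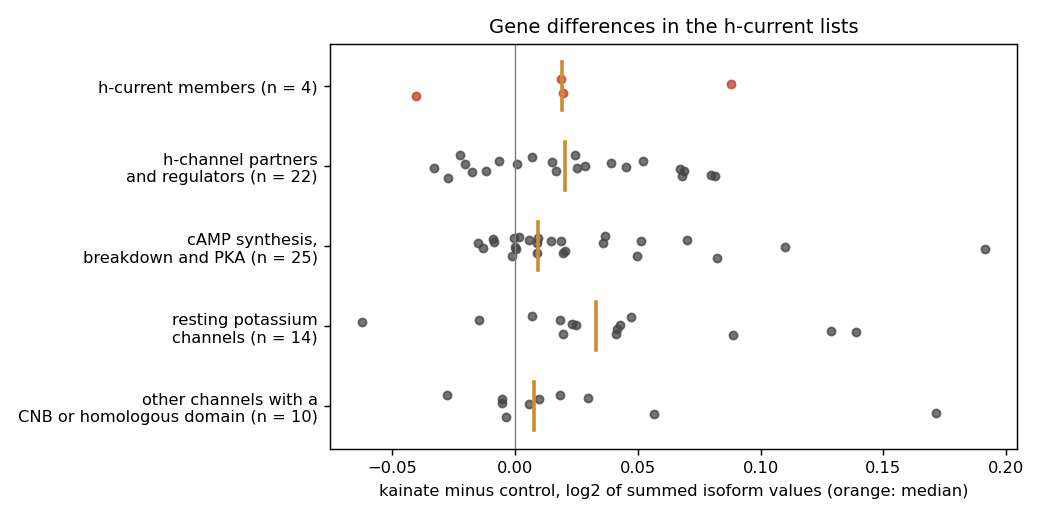
Kainate minus control (horizontal axis, log2 of summed isoform values) for the 4 h-current members and the 4 lists of related genes; each point is a gene and the orange bar is the median. The medians lie between 0.0077 and 0.033, and no gene passed limma at an adjusted p under 0.05.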

How the data were processed

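RNA-seq libraries of 8 kainate and 8 control rats were compared. Per the submitters' processing notes the authors used Trim Galore, RSEM, SAMtools, GATK and DESeq2, with no versions. No aligner, build or annotation is stated in the labels or headers. The authors deposited a log2 value per isoform and animal, whose transform is not named and which, from the values, compresses weak isoforms. The authors also deposited a mean normalized count (a signal averaged over animals) and DESeq2 results: a log2 fold change with its error, a Wald score, p-values and a fold ratio. The other deposited tables were not used.

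The log2 values were fitted as deposited with limma 3.58.1 in R 4.3.3 (mean-variance trend, robust), over all 21698 isoforms or 16602 gene totals (log2 of summed 2-power values), with Benjamini-Hochberg adjustment, a threshold of 0.05 and two-sided tests. The method was tested on simulated data. The members and lists were chosen with earlier results of these data known. Named genes were the members, the 3 of each related list with the smallest p, and the 3 most like each member; Kctd3, Rab8b, Wfs1, Mbp, Prox1 and the nearest genes under the other likeness measure (Dapk3, Fam222b) fall outside this rule and were chosen after their values were seen. No label says that rats of equal number were matched. Same-numbered libraries deviated together (r from 0.127 to 0.781 in 8 pairs, all above 0.1), so a replicate block was also fitted. With the means of the replicate sets removed, r ran from -0.349 to 0.667 and was below 0.1 in pairs 1 and 8, so part of that likeness is the split of replicates. The alternatives were the block, a term for the sets, libraries or pairs left out, each set alone, other limma settings, quantile normalization, a minimum mean normalized count of 20, and the authors' deposited DESeq2 values.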

Additional observations from a re-analysis of the deposited data

Results flagged for a closer look

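In kainate replicate 7 the Pex5l value of 12.35 lay far below the other kainate libraries, the next being 12.63, a gap of 0.591 of the group's range, past Dixon's 95% critical value for 8 samples. In control replicate 1 the Hcn3 value of 9.67 lay below the other controls, the next being 9.81, a gap of 0.539 of the range. Chance flags about 1 in 20 groups, and 8 groups were examined. Without kainate replicate 7 the Pex5l difference was 0.14, and without control replicate 1 the Hcn3 difference was -0.0019. Kainate replicate 7 was also among the highest kainate libraries for Hcn3 and Hcn4.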

How the results depend on the processing

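As isoforms, Hcn2, Hcn4 and Pex5l kept their direction under all 34 alternatives each and Hcn3 under 31; as gene totals, for which the authors' deposited values give none, under all 33 and under 30. None was called under any of them. The block, the term for the sets, the other limma settings and the minimum count left each difference as it was, so they could not change a direction. The block fits without a library repeat the differences without its pair, and the gene totals repeat those of the isoforms. These counts therefore do not measure how stable a direction is. The smallest limma adjusted p, as isoform and as gene total, was 0.351 and 0.252 for Hcn2, 0.491 and 0.407 for Pex5l (both from the replicate block without control replicate 1), 0.890 and 0.863 for Hcn3, and 0.919 and 0.904 for Hcn4. With a library or a same-numbered pair left out, differences ran from -0.090 to -0.0064 for Hcn2, -0.0049 to 0.037 for Hcn3, 0.0015 to 0.040 for Hcn4 and 0.047 to 0.14 for Pex5l. Hcn3 reversed to -0.0019 without control replicate 1, and to -0.0049 without both libraries of replicate 1 and with the replicate block without control replicate 1. The replicate block left every call at 0. The 2 fits that join the block with a library left out, and the interaction with the replicate sets, were chosen after seeing the data. In the block fit without control replicate 1, Hcn2 was at -0.090 (limma unadjusted p = 0.0169), and in that without kainate replicate 7, Pex5l was at 0.12 (limma unadjusted p = 0.0483, adjusted p = 0.667). Of all 21698 isoforms, 2681 had an unadjusted p under 0.05 in the former fit and 1627 in the latter, so such values were common there. Isoform usage was not run, since no member had several isoforms. The deposited log2 scale understates differences of weak isoforms, and the unknown depth limits what can be said of Hcn4, the weakest in count.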
